A study of Mus musculus with 48 samples.

Results

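The replication-dependent histone genes encode the core histones H2A, H2B, H3 and H4 and the linker histone H1, around which DNA is packed into chromatin. Members were chosen by symbol alone: every gene whose symbol begins with Hist1h, Hist2h, Hist3h or Hist4h, which gave 69 of the 24453 genes with exon values. They comprise 6 H1, 19 H2A, 19 H2B, 12 H3 and 13 H4 entries. By symbol, 55 belong to the Hist1 cluster on chromosome 13, 10 to Hist2 on chromosome 3, 3 to Hist3 on chromosome 11 and 1 to Hist4 on chromosome 6. One entry, Hist3h2bb-ps, is a pseudogene.

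RNA came from livers of C57BL/6 mice of 14 weeks, either wild type or Nono-/-, which lack the RNA-binding nuclear protein Nono. The light cycle was 12 h on and 12 h off, and for 1 week before collection all animals had food in the dark phase alone. Livers were taken every 2 h from zeitgeber time 0 (ZT0, lights on) to ZT22, and each sample pooled 2 mice. A frozen piece of each sample gave a total RNA library and nuclei of the rest gave a nuclear RNA library, which makes 48 libraries, 12 for each genotype and fraction. The labels do not say which Nono allele was used, and each genotype has 1 pool per time and fraction, so p-values measure the spread of pools taken at different times around a smooth daily curve.

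Histone genes of this family are mostly transcribed in S phase, when newly copied DNA needs histones, and adult liver has few dividing cells. Most lack introns, and their messages end not in a poly(A) tail but after a short stem-loop, which the protein Slbp binds and beside which the U7 ribonucleoprotein directs the cut. Some members also make spliced, polyadenylated messages outside S phase. The libraries were depleted of ribosomal RNA rather than selected for poly(A), so both kinds of message could be read.

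The stem-loop is shown for 6 members because it is the shared end of these messages. The capitals mark the 16 bases of the stem-loop, with a stem of 6 base pairs and a loop of 4 bases, and the sequences are the GENCODE M21 transcripts on GRCm38 (mm10), in DNA letters, 5′ to 3′. Their positions are chr13:23621777-23621802 (minus strand) for Hist1h1e, chr13:23739507-23739531 (plus) for Hist1h1c, chr13:23581945-23581969 (plus) for Hist1h4d, chr3:96262934-96262959 (minus) for Hist2h4, chr13:23747198-23747223 (plus) for Hist1h2bb and chr13:23561898-23561923 (minus) for Hist1h3e.
Hist1h1e: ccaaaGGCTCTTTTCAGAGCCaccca
Hist1h1c: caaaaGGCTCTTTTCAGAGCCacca
Hist1h4d: ccaaaGGCCCTTTTCAGGGCCacta
Hist2h4: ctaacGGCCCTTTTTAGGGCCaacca
Hist1h2bb: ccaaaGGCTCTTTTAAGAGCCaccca
Hist1h3e: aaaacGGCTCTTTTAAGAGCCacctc

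The histone stem-loop motif was found on the gene's strand in the exons as tabulated of 44 of the 67 members matched to GENCODE, and in 43 of these it ended within 8 bases of the transcript's end. Over any annotated transcript it was found in 46 of 69 members (66.7%) and in 28 of 55272 other genes (0.0507%). Among the 18 members with enough signal to test in total RNA, 12 carried it. The exceptions were Hist1h2bc, Hist2h2bb, Hist2h2be, Hist2h2ab, Hist1h1a and Hist1h1b, whose annotated ends here do not hold these letters. For Hist2h2bb, Hist2h2be, Hist2h2ab and Hist1h1b the searched transcripts (381, 2620, 393 and 743 bases) were shorter than the tabulated exons (490, 2664, 435 and 791). Part of these exons was thus not searched, and a stem-loop there would be missed.

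Promoter windows of 300 bases, from 250 before to 50 after the RefSeq start (GRCm38.p6), were available for 62 members. The H1 box, searched as AAACACA on both strands, stood in 5 of 6 H1 windows, 2 of 18 H2A and 2 of 16 H2B windows, 0 of the H3 and H4 windows and 7.14% of all 27025 promoter windows. The octamer, searched as ATTTGCAT on both strands, stood in 6 of 16 H2B and 7 of 18 H2A windows, 0 of the H1, H3 and H4 windows and 1.75% of all. TATAAA stood in 56.5% of member windows against 14.2% of all, and CCAAT in 85.5% against 37.9%, with H4 apart at 3 of 12. A match is a description of letters and not of a factor's binding. One H1 window with its H1 box in capitals and one H2B window with its octamer in capitals are given from 130 bases before to 10 after the start, at chr13:23622549-23622688 (minus strand) for Hist1h1e and chr13:23746604-23746743 (plus) for Hist1h2bb, both tested in both fractions.
Hist1h1e: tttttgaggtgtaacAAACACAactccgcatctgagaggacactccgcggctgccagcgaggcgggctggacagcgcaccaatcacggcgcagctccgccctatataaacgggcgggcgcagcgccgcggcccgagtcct
Hist1h2bb: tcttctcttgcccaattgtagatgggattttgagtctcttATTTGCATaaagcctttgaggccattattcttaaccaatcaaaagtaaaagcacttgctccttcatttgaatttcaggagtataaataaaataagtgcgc

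Members are short, GC-rich and much alike. The median exon length was 480 bases (356 to 2982) against 2063 over all genes. The median GC content of the 67 matched members was 62.1%, and 57 of them lay above 56.4%, the start of the GC-richest decile of the genes used for comparison. Of the possible stretches of 50 bases in a member's transcript, a median of 41.1% occurred in no other gene, and in 43 members the share was under 50%. Reads from shared stretches cannot be assigned to 1 member, so values of single members are uncertain to that extent. The median share was 78.2% in the 18 members tested in total RNA and 31.8% in the other 51. Hist2h2ab, Hist2h2bb and Hist3h2a also overlap other annotated genes (Gm15444 antisense, Gm20628 antisense with Gm42743, and Trim17). The file headers name no strand option, so reads of such overlaps cannot be told apart.

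The libraries were checked before any comparison. Depth, read from the spacing of the smallest FPKM values, was 9.91 to 23.9 M reads for total RNA and 12.7 to 28.9 M for nuclear RNA. Nono, the deleted gene, read 8.74 to 10.7 FPKM in wild-type total RNA and at most 0.091 FPKM in Nono-/- total RNA, and 2.05 to 2.73 against at most 0.032 FPKM in nuclear RNA. The hepatocyte markers Alb, Apoa1, Ttr, Serpina1a and Cps1 were present in every library, with summed values of 26649 to 46692 FPKM in total RNA. A GC index was set for each library as the median log2 deviation of the GC-richest decile of other genes minus that of the GC-poorest. In total RNA 4 libraries stood under −0.6, wild type at ZT8 (−1.20) and Nono-/- at ZT10 (−0.72), ZT14 (−0.78) and ZT16 (−0.70), against −0.44 to 0.72 in the other 20. In nuclear RNA the 4 libraries under −0.6 were all Nono-/-, at ZT2 (−2.03), ZT6 (−0.90), ZT18 (−1.05) and ZT22 (−0.89), against −0.35 to 0.81 in the others. The index averaged 0.39 ± 0.36 (SD, n = 12) in wild-type and −0.37 ± 0.73 in Nono-/- nuclear libraries, so in this fraction it moved with genotype.

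Histone levels moved with this index in total RNA. In the 4 libraries of low index the median of 17 tested members lay 1.02 to 1.41 log2 units below the mean of the 24 libraries, and in the other 20 it lay between −0.34 and 1.14. In each of the 4, at least 15 of the 17 members were below their mean. Hist1h2bc, the remaining tested member, lay 0.19 to 0.36 above its mean in the same 4 libraries. Rpph1, the RNA of RNase P and another short non-polyadenylated transcript, read 113 to 247 FPKM in the 4 libraries and 301 to 1854 FPKM in the rest. At the other end stood the wild-type ZT22 libraries, where the index was 0.72 in total and 0.81 in nuclear RNA and the members' median was 1.14 (17 members) and 1.81 (7 members) above the mean. In nuclear RNA the 2 sets of libraries were not set apart in this way. There the members' median was −0.91 to −0.17 in the 4 libraries of low index and −0.93 to 1.81 in the other 20. Each comparison of the members below was therefore also made without the libraries of low index and with the index as a covariate. Both were chosen after seeing the data. Calls of other genes and of cell markers below come from the main fit alone. Their dependence on the index was not tested, also in nuclear RNA, where the index moved with genotype.

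**Figure D1:**
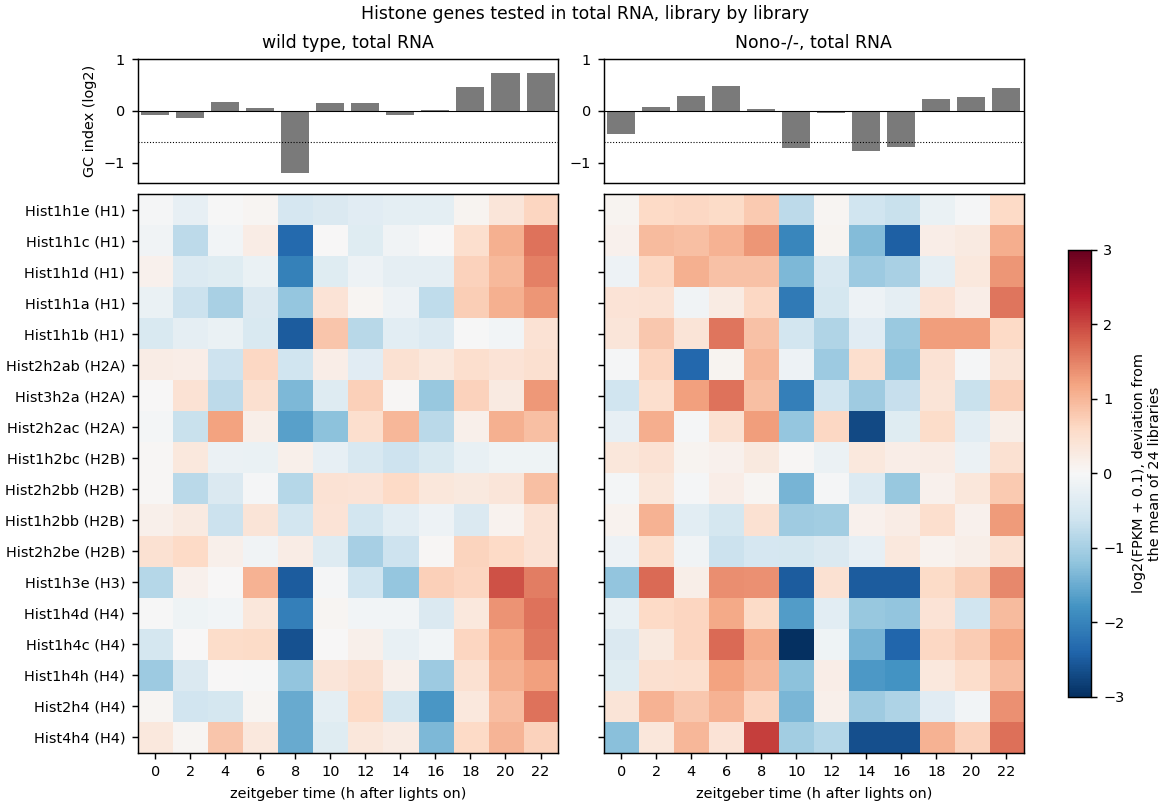
Deviation of log2(FPKM + 0.1) from the mean of the 24 total RNA libraries (colour) for the 18 tested histone genes, by zeitgeber time and genotype, with the GC index of each library as bars above and −0.6 as a dotted line. Columns where at least 15 of the 17 genes other than Hist1h2bc lie below their mean fall at wild-type ZT8 and at Nono-/- ZT10, ZT14 and ZT16, the 4 libraries whose bars pass the dotted line.

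**Figure D2:**
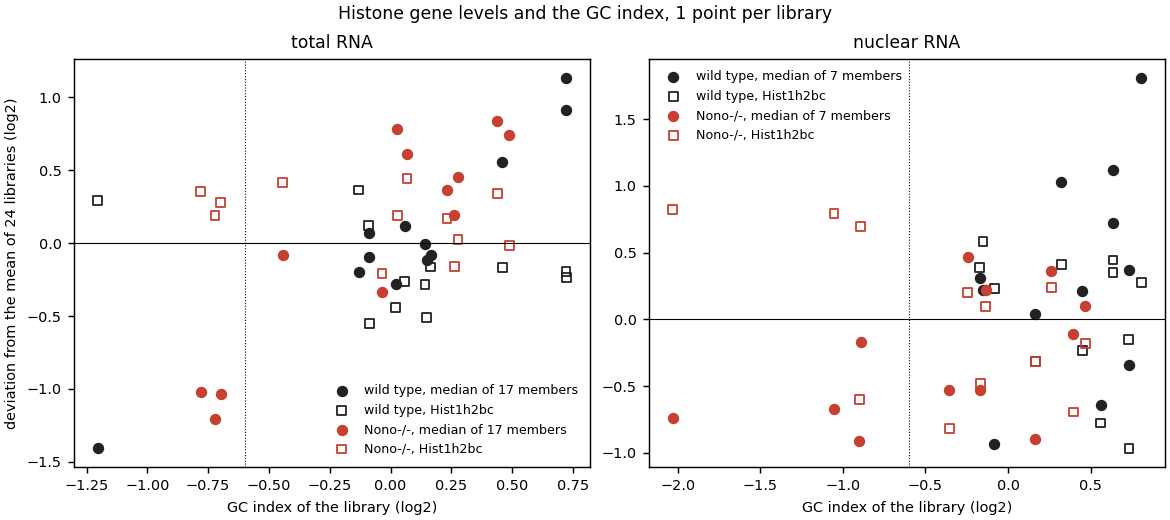
Each library's GC index (x, log2) against the deviation from the mean of 24 libraries (y, log2), as the median of the tested members other than Hist1h2bc (filled circles) and for Hist1h2bc (open squares), in total and nuclear RNA. In total RNA the 4 libraries left of −0.6 have member medians of −1.41 to −1.02, while their Hist1h2bc values are 0.19 to 0.36. In nuclear RNA the 4 libraries left of −0.6 have member medians of −0.91 to −0.17, within the −0.93 to 1.81 of the other 20.

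Most members were low or listed at 0 in these livers. FPKM (fragments per kilobase of exon, scaled to the number of reads in a library) allows levels to be compared between genes. Of the 69 members, 37 never reached 0.5 FPKM in any library and 9 were listed at 0 in all 48. Of those 9, 6 are listed with 2 copies in the genome, between which reads cannot be placed, and Hist1h2aa and Hist1h2ba are known from the testis germ line. For Hist1h2aa, 3 reads over the wild-type total group would be 0.0302 FPKM, a limit that covers counting error only. H1fx and Rnu7, which are no members, were also at 0 in all 48 libraries, so a listed 0 may be reads that were not placed or counted and does not show a silent gene. In wild-type total RNA 13 members averaged at least 1 FPKM, and in wild-type nuclear RNA 5 did. A mean of 0.5 FPKM over the 24 libraries of a fraction was required for a test, which 18 members met in total RNA (5 H1, 3 H2A, 4 H2B, 1 H3, 5 H4) and 8 in nuclear RNA. The highest member left out, Hist1h4b, averaged 0.379 FPKM in wild-type total RNA.

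All members together summed to 124 FPKM ± 26.0 (SD, n = 12, as for all means of a group below) in wild-type and 146 ± 34.1 in Nono-/- total RNA, and to 21.5 ± 14.8 and 12.8 ± 4.61 in nuclear RNA. The ranges overlapped in both fractions: 96.2 to 183 against 96.7 to 203 FPKM in total RNA, and 8.93 to 60.4 against 6.75 to 19.4 in nuclear RNA. A single H2B gene, Hist1h2bc, held 54.6% ± 10.8 of the wild-type total sum and 28.2% ± 10.4 of the wild-type nuclear sum. In Nono-/- livers its shares were 59.6% ± 11.4 and 35.0% ± 9.63. In bulk tissue, fewer cells with a message and less message per cell cannot be told apart.

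The H2B genes led through Hist1h2bc (NM_023422, chr13:23684199-23692480, plus strand, 724 exon bases). Its total RNA level was 48.1 FPKM at the lowest (ZT14), 64.9 at the median and 91.3 at the highest (ZT2) in wild type, and 65.3 (ZT12), 84.9 and 100.7 (ZT22) in Nono-/-. The genotypes overlapped, although every Nono-/- pool lay above the wild-type median. In nuclear RNA it read 2.44, 5.21 and 7.91 FPKM in wild type and 2.13, 4.72 and 6.61 in Nono-/-. Its entry has an intron, unlike most members, and the intron read 3.10 FPKM ± 0.964 in wild-type nuclei and 0.886 ± 0.299 in wild-type total RNA, with 2.82 ± 1.19 and 0.643 ± 0.257 in Nono-/-. Of the other 4 members with intron values, Hist1h2be averaged 0.176 FPKM in wild-type nuclei and Hist1h2br, Hist1h2bq and Hist1h2bp were at or near 0.

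The other tested H2B genes were far lower. Hist2h2bb (chr3:96269700-96270192) had 2.57, 5.90 and 8.94 FPKM as lowest, median and highest in wild-type total RNA and 1.73, 4.78 and 8.18 in Nono-/-. In nuclei it ranged from 0.471 to 6.54 FPKM in wild type and from 0.15 to 3.70 in Nono-/-. Hist1h2bb (chr13:23746734-23747223) had 0.903, 1.44 and 2.02 FPKM in wild-type and 0.640, 1.61 and 3.66 in Nono-/- total RNA. Hist2h2be, whose annotated exon of 2664 bases is long for the family and has 45.3% GC, had 0.418, 1.09 and 1.56 FPKM in wild-type and 0.561, 0.854 and 1.40 in Nono-/- total RNA. Through its length it held 610 reads over the wild-type total libraries, more than Hist2h2bb with 568.

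The H1 genes encode the linker histone that binds where DNA enters and leaves the nucleosome. Hist1h1e (NM_015787, chr13:23621777-23622558, minus strand) was the second highest member, with 12.4, 16 and 27.4 FPKM as lowest, median and highest in wild-type and 10.2, 18.5 and 30.3 in Nono-/- total RNA. Its nuclear values were 0.770, 2.4 and 10.1 FPKM in wild type and 0.648, 1.51 and 3.32 in Nono-/-. The wild-type ZT22 pool was the highest of its group in both fractions. Hist1h1c (chr13:23738807-23739531) had 0.871, 4.68 and 15.1 FPKM in wild-type and 0.797, 5.67 and 12.2 in Nono-/- total RNA. Hist1h1d (chr13:23555032-23555807) had 0.542, 2.13 and 7.36 against 0.922, 2.72 and 6.43 FPKM, and Hist1h1a (chr13:23763668-23764412) 0.565, 1.21 and 3.61 against 0.240, 1.62 and 4.40. For Hist1h1c, Hist1h1d and Hist1h1a the wild-type low was the ZT8 library and the wild-type high the ZT22 library. Hist1h1b averaged 0.394 FPKM ± 0.221 in wild-type and 0.743 ± 0.462 in Nono-/- total RNA. The testis H1 gene Hist1h1t summed with the other germ line histones to at most 0.315 FPKM in any library.

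Histone H4, which pairs with H3 at the core of the nucleosome, was represented by 5 tested genes. Hist1h4d (NM_175654, chr13:23581602-23581969, plus strand) had 1.0, 4.35 and 14.2 FPKM as lowest, median and highest in wild-type and 1.34, 4.91 and 9.94 in Nono-/- total RNA. Hist1h4c (chr13:23698084-23698458) had 0.422, 3.30 and 9.50 against 0.239, 4.30 and 10.3 FPKM. Hist1h4h (chr13:23531044-23531478) had 0.970, 2.47 and 5.60 against 0.592, 3.10 and 5.43 FPKM, and Hist2h4 (chr3:96262934-96263317) 0.335, 1.26 and 4.46 against 0.468, 1.68 and 3.70. Hist4h4 averaged 0.650 FPKM in wild-type total RNA. The H4 genes spread widely between pools, with coefficients of variation of 49.0% to 74.4% in wild-type total RNA against 18.6% for Hist1h2bc.

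The H2A and H3 genes gave little signal. Hist2h2ab (NM_178213, chr3:96219916-96220353, plus strand) had 0.708, 1.42 and 1.82 FPKM in wild-type and 0.144, 1.18 and 2.42 in Nono-/- total RNA. In nuclei it read 0.696, 1.78 and 4.54 FPKM in wild type and 0.395, 1.5 and 2.70 in Nono-/-, so its nuclear medians were not below its total medians. Hist3h2a and Hist2h2ac averaged 0.801 and 0.711 FPKM in wild-type total RNA. Hist1h3e, the one H3 gene that could be tested, averaged 0.688 FPKM ± 0.595, and all 12 H3 entries together summed to 1.88 ± 1.51. By class, the wild-type total sums were 27.6 ± 10.8 FPKM for H1, 3.39 ± 1.10 for H2A, 75.0 ± 11.6 for H2B and 15.8 ± 9.43 for H4. The classes also differed in the median share of a member's stretches that occurred in no other gene. That share was 90.4% for H1, 30.1% for H2A, 45.6% for H2B, 34.5% for H3 and 48.8% for H4. Reads from shared stretches may be missing from the sums, and their part in the low H2A and H3 values was not tested.

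**Figure D3:**
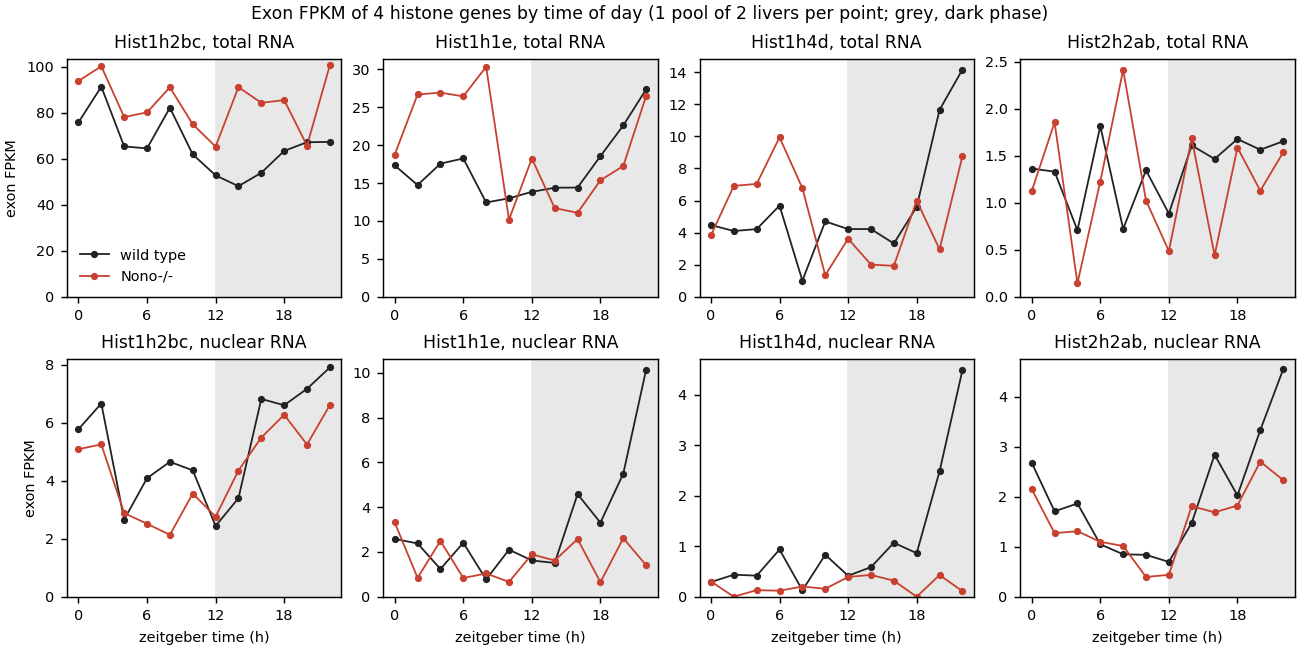
Exon FPKM (y, from 0) by zeitgeber time (x) for Hist1h2bc, Hist1h1e, Hist1h4d and Hist2h2ab in total (top) and nuclear RNA (bottom), 1 pool per point, wild type and Nono-/- as separate lines and the dark phase in grey. Total Hist1h2bc was higher in Nono-/- at 11 of 12 times, and the wild-type ZT22 nuclear pool stands highest for Hist1h1e (10.1 FPKM) and Hist1h4d (4.48 FPKM).

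In total RNA, loss of Nono was accompanied by a higher level of 1 histone gene. Hist1h2bc rose by 0.34 ± 0.09 (SE) on the log2(FPKM + 0.1) scale, a fold of 1.26 (limma, Benjamini-Hochberg adjusted p = 0.020), and was higher at 11 of 12 times. This was 1 of 18 members called higher and 0 of 18 lower, against 4.45% and 6.48% of all 11352 genes tested, so the share of members called was near the background. Without scaling of the libraries all genes split into 762 higher and 539 lower (505 and 736 with it), and the same member was called. At an unadjusted p under 0.05 there were 2 members higher and 0 lower, against 12.3% and 13.8% of all genes. The members' median change was −0.04, with 8 above and 10 below 0, against 0.00035 over all genes. Hist1h1b, the other of the 2, differed by 0.70 ± 0.29 (adjusted p = 0.134 with limma), and it met the minimum through its Nono-/- level alone. Hist1h1e differed by 0.15 ± 0.10 (adjusted p = 0.329) and Hist1h4d by −0.15 ± 0.25 (adjusted p = 0.757), and in all 18 members the 2 genotypes' ranges overlapped.

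The 95% interval of the change of Hist1h2bc ran from 0.16 to 0.51 on the log2 scale. The limma call of Hist1h2bc was lost when the intron share of each library, on average 22.1% in wild type and 18.5% in Nono-/-, was a covariate (0.34, adjusted p = 0.276) and without ZT14 (adjusted p = 0.060), ZT16 (0.054) or ZT22 (0.053). Without the 4 libraries of low GC index it remained (0.29, adjusted p = 0.049), and Hist1h1e was called with it (0.30, adjusted p = 0.047). With the GC index as covariate Hist1h2bc was called at 0.28 (adjusted p = 0.006) together with Hist1h1b at 0.88 (adjusted p = 0.011).

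Markers of Kupffer cells, the resident macrophages of the liver, moved with the same contrast. Of 6 such markers, 5 were called higher in Nono-/- total RNA with a median change of 0.37, among them Adgre1 (0.36 ± 0.10, adjusted p = 0.026) and Cd5l (0.44 ± 0.12, adjusted p = 0.021) with limma. Their summed level was 54.4 to 151 FPKM in wild type (median 98.4) and 75.5 to 184 in Nono-/- (median 120), and no marker was at 0. Of the 4 stellate cell markers 1 was called higher (sums of 103 to 155 against 108 to 172 FPKM). No marker of hepatocytes (0 of 5), endothelium (0 of 5), neutrophils (0 of 2 tested), erythroid cells (0 of 3 tested) or lymphocytes (0 of 1 tested) was called in total RNA, at unadjusted p under 0.05 in 0, 1, 0, 1 and 0. The part of these cells in the higher Hist1h2bc was not tested.

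In nuclear RNA 1 histone gene was called lower in Nono-/-. Hist1h4d read 0.126, 0.708 and 4.48 FPKM as lowest, median and highest in wild-type nuclei and 0, 0.180 and 0.432 in Nono-/- nuclei. The difference was −1.47 ± 0.33 (SE) on the log2 scale, a fold of 2.77 (limma, adjusted p = 0.004), with Nono-/- lower at 9 of 12 times. These values rest on 77 reads over the 12 wild-type libraries and 19 over the 12 Nono-/- libraries, and the gene met the minimum through its wild-type level alone, so a lower Nono-/- value is in part what let it be tested. The same holds for Hist1h1d (means of 0.916 and 0.267 FPKM) and Hist1h2bb (0.797 and 0.362). It was 1 of 8 members lower and 0 of 8 higher, against 18.6% and 15.7% of all 10500 genes tested. At an unadjusted p under 0.05 there were 5 of 8 lower and 0 higher with limma, against 24.2% and 22.1% of all genes, and with these 3 genes among the 5 the count is a description only. Without scaling of the libraries the median over all genes shifted to −0.20 and 380 genes were higher and 3398 lower (1648 and 1956 with it), so the values given are relative to the median gene.

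The members next in size were Hist1h2bb (−0.77 ± 0.31, adjusted p = 0.059), Hist1h1d (−0.71 ± 0.34, 0.101), Hist2h2bb (−0.59 ± 0.28, 0.106) and Hist1h1e (−0.56 ± 0.23, 0.060) by limma. Hist1h2bc (−0.04 ± 0.16), Hist2h2be (0.02 ± 0.17) and Hist2h2ab (−0.14 ± 0.15) differed by less than their errors. Without the 4 libraries of low GC index Hist1h4d differed by −1.05 (adjusted p = 0.067), and with the index as covariate by −0.46 (adjusted p = 0.478), so neither fit called a member. Without ZT22, whose wild-type pool held the highest value, Hist1h4d fell under the minimum level and 0 members were called, while 3 were called without ZT0 or ZT4 and 2 without ZT14. In nuclei 4 of 5 tested Kupffer markers were called higher in Nono-/-, as were the endothelial Kdr (1 of 5) and the stellate Lrat (1 of 4), while the hepatocyte Apoa1 (1 of 5) and the stellate Colec11 (1 of 4) were lower. The 1 erythroid marker tested was not called, and the part of these cells in these values was not tested. Genotype and low GC index share libraries in this fraction and cannot be told apart fully: all 4 low libraries are Nono-/-.

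**Figure D4:**
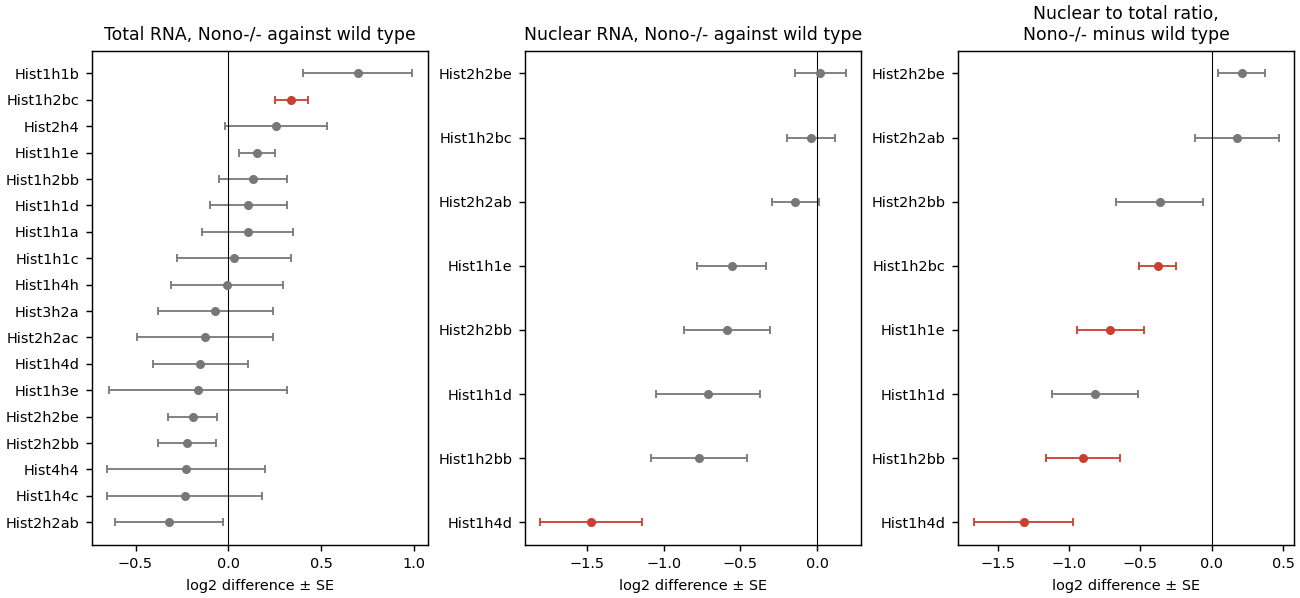
Log2 difference with its SE (x) for each tested histone gene (y): Nono-/- against wild type in total RNA, the same in nuclear RNA, and the difference in the nuclear to total ratio. Red points passed the adjusted p of 0.05: Hist1h2bc in total RNA, Hist1h4d in nuclear RNA, and Hist1h4d, Hist1h2bb, Hist1h1e and Hist1h2bc for the ratio.

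The nuclear and total libraries of a pool come from the same livers, so their difference in log2 value, relative to the median gene, shows how the members divide between nuclei and the whole tissue. In wild type 4 of the 8 tested members were lower in nuclei than the median gene, 2 were higher and 2 did not pass the test, against 43.8% lower and 43.8% higher over all 9871 genes. Hist1h2bc was lowest at −2.50 ± 0.09 (SE), a fold of 5.65, and its 12 pools lay between −3.33 and −1.78. Hist1h1e followed at −1.45 ± 0.17 and Hist1h4d at −1.32 ± 0.25, both below 0 in 12 of 12 pools, and Hist1h1d at −0.84 ± 0.21 in 10 of 12. Hist2h2ab was the reverse, 1.60 ± 0.21 above the median gene in 12 of 12 pools (0.54 to 2.52), and Hist2h2be was 0.75 ± 0.12 above in 11 of 12. Hist2h2bb (−0.37 ± 0.22, limma adjusted p = 0.113) and Hist1h2bb (0.22 ± 0.18, 0.264) did not pass. Of the 4 genes that were lower, Hist1h1e, Hist1h4d and Hist1h1d carry the stem-loop in their annotated ends. It was not found for Hist1h2bc or for the 2 genes that were higher. Of the 2 genes that did not pass, Hist1h2bb carries it too, and in Hist2h2bb it was not found. The transcripts searched for Hist2h2ab (393 bases), Hist2h2be (2620) and Hist2h2bb (381) were shorter than their tabulated exons (435, 2664 and 490). Absence of the stem-loop from Hist2h2ab, Hist2h2be and Hist2h2bb is therefore not shown. For scale, the 5 hepatocyte markers were all lower, with a median of −3.51.

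The value of Hist2h2ab includes any reads from its antisense neighbour Gm15444. Without ZT22, Hist1h4d and Hist1h1d fell under the minimum level and 2 members were lower. Hist1h1d no longer passed with a pseudocount of 1 FPKM (−0.15, limma adjusted p = 0.185), nor Hist2h2be with no filter on low values (0.04, adjusted p = 0.740).

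Between genotypes the ratio differed for 4 of the 8 members, all lower in Nono-/-, and 0 were higher, against 9.42% lower and 9.98% higher over all genes. At an unadjusted p under 0.05 there were 5 lower and 0 higher, against 18.5% and 18.7%. The mean ratio of Hist1h4d was −1.32 ± 0.53 (SD, n = 12) in wild type and −2.64 ± 1.44 in Nono-/-, a difference of −1.32 ± 0.35 (SE, limma adjusted p = 0.018). For Hist1h2bb the means were 0.22 ± 0.48 and −0.69 ± 0.82, a difference of −0.90 ± 0.26 (adjusted p = 0.023). For Hist1h1e they were −1.45 ± 0.65 and −2.17 ± 0.77 (−0.71 ± 0.23, 0.039) and for Hist1h2bc −2.50 ± 0.44 and −2.88 ± 0.50 (−0.38 ± 0.13, 0.044). Each of the 4 was lower in Nono-/- at 9 of 12 times, and the pools of the genotypes overlapped. Hist1h1d differed by −0.82 ± 0.30 (adjusted p = 0.057), while Hist2h2ab (0.18 ± 0.29), Hist2h2be (0.21 ± 0.17) and Hist2h2bb (−0.36 ± 0.30) were not called. Hist1h4d, Hist1h2bb and Hist1h1d reached the nuclear minimum through wild type alone, so the count is a description only. Without scaling the median over all genes was −0.21, with 187 genes higher and 2386 lower (985 and 930 with it).

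Without the pools holding a library of low GC index, 16 of 24 pools remained and 0 members were called. In that fit the differences of Hist1h4d (−0.65) and Hist1h1e (−0.44) were smaller and those of Hist1h2bb (−1.06) and Hist1h2bc (−0.49) larger than with all pools. With the index as covariate 1 remained, Hist1h2bc (−0.52, adjusted p = 0.032), and with a pseudocount of 1 FPKM Hist1h4d differed by −0.43 (adjusted p = 0.103). The count was also 0 without ZT8 or ZT22, 1 without ZT6 and 2 without ZT2, ZT10, ZT12 or ZT20.

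**Figure D5:**
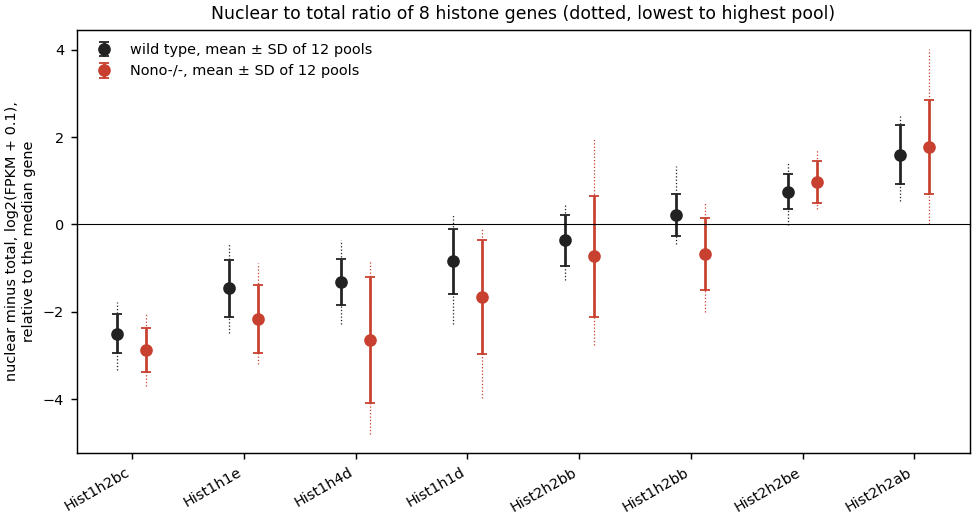
Nuclear minus total log2(FPKM + 0.1), relative to the median gene (y), for the 8 histone genes tested in both fractions (x), with the mean, its SD over 12 pools and the lowest and highest pool as dotted lines for wild type and Nono-/-. Hist1h2bc stands lowest in both genotypes (−2.50 and −2.88) and Hist2h2ab highest (1.60 and 1.77).

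Time of day was tested as a 24 h curve within each genotype. In wild-type total RNA 4 of 18 members followed such a curve, against 31.6% of all genes, and 8 of 18 at an unadjusted p under 0.05, against 43.9%. Hist1h1d peaked at 20.3 h with a peak-to-trough fold of 3.57 (limma adjusted p = 0.007), Hist1h1e at 22.1 h with 1.59 (0.030), Hist2h2be at 23.2 h with 2.24 (0.007) and Hist2h2bb at 16.7 h with 2.02 (0.045). For Hist1h1d the ZT18, ZT20 and ZT22 pools held 4.15, 5.06 and 7.36 FPKM, and no other wild-type pool exceeded 2.75. The same 3 libraries had the highest GC index of the wild-type total group (0.46, 0.72 and 0.72). With the index as covariate the log2 peak-to-trough difference of Hist1h1d was 0.88 (limma adjusted p = 0.026), against 1.84 without it. The part of the index in this curve was not tested beyond that fit. All 4 fitted peaks lay in the dark phase, when the mice ate.

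In Nono-/- total RNA 6 of 18 members were called, against 29.6% of all genes, and 13 of 18 at an unadjusted p under 0.05, against 42.9%. Of the 5 tested H1 genes 3 were called, with fitted peaks early in the light: Hist1h1e at 3.0 h (fold 2.11, limma adjusted p = 0.001), Hist1h1d at 2.0 h (3.48, 0.009) and Hist1h1c at 2.4 h (4.95, 0.021), with Hist2h4 at 2.1 h (3.69, 0.035). Hist1h1a and Hist1h1b were not called, with fitted peaks at 22.8 h and 1.0 h. Hist1h2bb peaked at 21.9 h (2.51, 0.026) and Hist2h2be at 20.8 h (1.85, 0.040). Hist1h1d held 3.92 to 5.35 FPKM from ZT2 to ZT8 and 6.43 at ZT22, its highest pool as in wild type, and 0.922 to 1.78 from ZT10 to ZT16, a span that holds the 3 Nono-/- libraries of low GC index. Without the libraries of low index 1 member was called in Nono-/- (Hist1h1e) and 5 in wild type, where Hist1h2bc joined the 4. With the index as covariate 5 were called in Nono-/-, Hist1h1e, Hist1h1d and Hist1h1c among them, and 4 in wild type, with Hist1h2bc in place of Hist1h1e. The curves of the genotypes did not differ for any member by the test of the difference itself: 0 of 18 were called, against 0% of all genes, with 5 at an unadjusted p under 0.05, against 10.6%.

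Counts of rhythmic members also hung on single times. In wild-type total RNA 7 were called without ZT10 and 2 without ZT18 or ZT20, and in Nono-/- total RNA 12 without ZT0 and 3 without ZT6, ZT10 or ZT14. Calls over all genes without the same times are not given here, so these counts describe the members alone.

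In nuclear RNA 4 of 8 members were called in wild type, against 10.5% of all genes, and 4 of 8 in Nono-/-, against 30.8%. At an unadjusted p under 0.05 there were 6 and 4, against 26.2% and 47.3%. Hist2h2ab peaked at 21.4 h in wild type (fold 3.43, limma adjusted p = 0.002) and at 21.9 h in Nono-/- (3.65, 0.001), and Hist2h2bb at 17.2 h (4.22, 0.049) and 16.7 h (4.56, 0.021). Hist2h2bb nuclear values ran from 0.471 FPKM at ZT8 to 6.54 at ZT22 in wild type and from 0.15 at ZT8 to 3.70 at ZT16 in Nono-/-. In wild type alone Hist1h1d (19.4 h, fold 6.51, 0.030) and Hist1h1e (20.3 h, 3.48, 0.034) passed, and in Nono-/- alone Hist1h2bc (20.9 h, 2.47, 0.014) and Hist2h2be (21.1 h, 2.57, 0.016). Hist1h1d met the nuclear minimum through wild type alone (means of 0.916 and 0.267 FPKM), as did Hist1h4d and Hist1h2bb. The counts of nuclear members are therefore a description only. The difference between genotypes was called for 0 of 8, against 0% of all genes, with 0 at an unadjusted p under 0.05, against 5.19%. Without the libraries of low GC index the wild-type count stayed at 4 and the Nono-/- count was 2, Hist2h2ab and Hist2h2bb, and with the index as covariate they were 6 and 5. The wild-type count was 1 without ZT8, ZT12, ZT16, ZT20 or ZT22.

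Genes that make, cut or deliver histones were followed as a list of 31, with 25 tested in total and 23 in nuclear RNA. In total RNA 1 was called higher in Nono-/-, Snrpe (0.35 ± 0.10, limma adjusted p = 0.033), a Sm protein of spliceosomal and U7 particles, and 0 lower. Over all genes 4.45% were called higher and 6.48% lower. The median change of the list was 0.05 against 0.00035 over all genes. Slbp, which binds the stem-loop, stood at 3.62 FPKM ± 0.544 in wild type and 3.64 ± 0.496 in Nono-/-, a difference of −0.01 ± 0.09. In nuclear RNA 4 were called higher and 5 lower, with a median of 0.02, against 15.7% and 18.6% of all genes, so the counts were near the background. The higher included Npat (0.34 ± 0.10, adjusted p = 0.016), the coactivator of histone transcription, and Casp8ap2 (0.28 ± 0.09, 0.028), and the lower Sympk (−0.74 ± 0.18, 0.005), a scaffold of the cleavage complex, and Snrpd3 (−0.51 ± 0.11, 0.003) with limma. The U7 RNA gene Rnu7 was listed at 0 in every library.

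The replication-independent histones are made throughout the cell cycle from polyadenylated messages. Of the 11 in the table, 9 were tested in total RNA, where H3f3b was called higher in Nono-/- (0.22 ± 0.07, limma adjusted p = 0.033) and 0 lower. In nuclear RNA H3f3b was called higher (0.45 ± 0.11, limma adjusted p = 0.007) and H2afy lower (−0.49 ± 0.11, 0.004) among 6. The shares of all genes called higher and lower were 4.45% and 6.48% in total RNA and 15.7% and 18.6% in nuclear RNA. Per length, H1f0 (28.6 FPKM ± 4.67) and H3f3b (25.3 ± 3.81) stood above every replication-dependent member except Hist1h2bc in wild-type total RNA. For H3 the contrast was with 1.88 FPKM over all 12 replication-dependent entries. The median share of stretches that occurred in no other gene was 34.5% in that class. Reads from shared stretches may be missing from its sum, and their part in this contrast was not tested.

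S phase and cell division genes were low in every group. Mki67 read 0.413 FPKM ± 0.190 in wild-type and 0.460 ± 0.0923 in Nono-/- total RNA, and Top2a 0.451 ± 0.205 and 0.573 ± 0.132. The list of 30 summed to 38.5 to 53.8 FPKM in wild-type and 41.4 to 54.3 in Nono-/- total RNA. Of 18 tested in total RNA, 0 were called in either direction by limma, against 4.45% of all genes higher and 6.48% lower. An unadjusted p under 0.05 was seen for 7, against 12.3% of all genes higher and 13.8% lower. The median change of the 18 was 0.16, against 0.00035 over all genes. Of 12 tested in nuclear RNA, Gmnn was called higher (0.52 ± 0.14, limma adjusted p = 0.009) and Tk1 lower (−0.84 ± 0.19, 0.004). Over all genes 15.7% were called higher and 18.6% lower in that fraction. By the 24 h curve, 7 of 18 were called in wild-type and 6 of 18 in Nono-/- total RNA, near the 31.6% and 29.6% of all genes.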

How the data were processed

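Per the submitters' processing notes, FastQC 0.11.2, STAR 2.4.0k and the build mm10 were used. Per the file headers, the authors deposited FPKM over exons or introns, made with HOMER's analyzeRepeats.pl with isoforms condensed to 1 entry per gene. HOMER's version is not stated in the labels or headers. Libraries were made with a stranded total RNA kit with ribosomal depletion, per the labels' protocols.

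From these FPKM values the levels are printed as deposited. For tests, libraries were scaled by the median over genes of the ratio to the geometric mean. log2(FPKM + 0.1), which understates changes of low genes, was fitted for all genes averaging 0.5 FPKM or more over the libraries of the fit. limma 3.58.1 (R 4.3.3) with trend modelled genotype, a 24 h cosine and sine, and the products of genotype with both. Adjusted p-values are Benjamini-Hochberg over all genes tested, with a threshold of 0.05. Ratios are nuclear minus total log2 values of 1 pool. The genotype fit of each fraction was tested on simulated data with known changes, independent noise and no daily rhythm. The tests of 24 h curves and of ratios were not simulated. Tables and figures used Python 3.11.15 and matplotlib 3.10.9.

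The members, the gene and marker lists and the tests were chosen with earlier results of these data known. Full values are given for the 12 members highest in wild-type total RNA and for members called in a genotype or ratio comparison (up to 6 each way, at least 1 FPKM in the higher group), and the others by ranges and counts. Hist2h2be, Hist1h1b, Hist3h2a, Hist2h2ac, Hist1h3e, Hist4h4, Rpph1 and the named genes of the lists were added after their values were seen. GC content, shared stretches of 50 bases and stem-loops come from GENCODE M21 transcripts, promoters from RefSeq (GRCm38.p6). GC was known for 97.0% of the 8098 genes used for the index in total RNA and 96.9% of 5281 in nuclear RNA, each with a mean of at least 2 FPKM.

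Time points recur in both genotypes. In total RNA the deviations of same-time libraries from their group means correlated above 0.1 in 12 of 12 pairs (0.143 to 0.563), which the shared daily rhythm also gives. The main fits modelled time as a 24 h curve and did not pair the genotypes by time point. An alternative limma fit with the time point as a block kept 1 member higher (Hist1h2bc, adjusted p = 0.017) and 0 lower.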

Additional observations from a re-analysis of the deposited data

Results flagged for a closer look

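The genotype effect differed between nuclear and total RNA for 4 histone genes by the limma test of the difference itself (adjusted p under the threshold of 0.05). The nuclear to total ratio of Hist1h4d was lower in Nono-/- by −1.32 on the log2 scale, that of Hist1h2bb by −0.90, that of Hist1h1e by −0.71 and that of Hist1h2bc by −0.38. Each was lower at 9 of 12 times, and removal of single time points ended the call at 4, 8 and 8 of 12 removals for Hist1h2bb, Hist1h1e and Hist1h2bc. For Hist1h4d it ended at 2 removals, and without ZT22 the gene fell under the minimum level. Hist1h4d and Hist1h2bb met the nuclear minimum through their wild-type level alone, which favours a lower Nono-/- value. The 4 nuclear libraries of low GC index are all Nono-/-, and without the pools they belong to, or those of a low total library, the differences were −0.65, −1.06, −0.44 and −0.49 and none passed. The part of the GC index in the calls was not tested beyond these fits.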

How the results depend on the processing

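Alternatives were run for the counts of called members, for each called gene and for 48 printed levels, 543 settings in all. Only the settings of single called genes could reverse a direction, and none of those did. The settings for counts and levels could only keep or move a value. The count called higher in total RNA (1) was 2 with no filter on low values, 0 with the intron share as covariate, 2 with the GC index as covariate, 2 without the libraries of low GC index and 0 to 2 without single time points. The count called lower in nuclear RNA (1) was 3 without scaling, 2 with pseudocounts of 0.5 or 1 FPKM, 0 with a minimum of 2 FPKM, 2 with no filter, 0 with the GC index as covariate, 0 without the libraries of low index and 0 to 3 without single times. Counts of 24 h curves without single times were 2 to 7 (wild-type total), 3 to 12 (Nono-/- total), 1 to 4 (wild-type nuclear) and 3 to 4 (Nono-/- nuclear). Without the libraries of low index they were 1 in Nono-/- total and 2 in Nono-/- nuclear RNA, and with a minimum of 2 FPKM, which leaves fewer members to test, 1 in each nuclear group. For the wild-type nuclear to total ratio, 0 members were higher and 2 lower with the minimum of 2 FPKM, 15 and 18 with no filter, and 2 to 5 lower without single times. For the difference in ratio, 2 were lower with the minimum of 2 FPKM, 1 with the GC index as covariate, 0 without the libraries of low index and 0 to 4 without single times. The cause was not tested where no fewer members or samples were fitted. Calls over all genes under the same settings are not set beside these counts, which therefore describe the members alone. In nuclear RNA same-time libraries correlated above 0.1 in 11 of 12 pairs (0.0557 to 0.556) and 10 of 24 libraries correlated best with their own time, against 12 of 24 in total RNA. In both fractions same-time libraries share a time label only. The replicate block in nuclear RNA gave 2 members lower, Hist1h4d and Hist2h2bb, and the block changed no call in total RNA. Scaling in place of deposited values moved none of 48 printed levels by over 1 SD (deposited values, planned as the alternative, are the ones printed). Depth also limits the nuclear values: Hist1h4d rests on 77 and 19 reads per genotype.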
